A study of Homo sapiens with 9 samples.

Results

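The nuclear genes of the mitochondrial respiratory chain and ATP synthase were followed in LNCaP, an androgen-responsive prostate cancer cell line that grew out of a metastasis in a lymph node. A gene was taken as a member when the platform annotation gave its probe set exactly 1 symbol and that symbol began with NDUFA, NDUFB, NDUFC, NDUFS, NDUFV, UQCR, COX4, COX5, COX6, COX7, COX8 or ATP5, or was SDHA, SDHB, SDHC, SDHD or CYC1, with the NDUFAF assembly factors left out. This gave 69 of 11963 genes, on 102 of 19064 probe sets with 1 symbol. By complex they numbered 29 for complex I, 3 for complex II, 7 for complex III, 13 for complex IV and 17 for ATP synthase (complex V). Of the 69, 67 were protein-coding genes. The other 2 were caught by their letters only: NDUFB2-AS1, an antisense RNA counted under complex I, and ATP5MC2P1, a pseudogene counted under complex V. A further 20 protein-coding symbols fit the letters, among them SDHB, NDUFS8, NDUFB9, COX4I2 and UQCRFS1, but are not analysed here. The subunits encoded in mitochondrial DNA are not analysed here either.

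The respiratory chain moves electrons from NADH (through complex I) and succinate (through complex II) to ubiquinone, then through complex III and cytochrome c to complex IV, which reduces oxygen to water. Complexes I, III and IV pump protons out of the matrix, and ATP synthase lets the protons back in through its membrane ring and turns that flow into ATP in its F1 head. Complex II is encoded wholly in the nucleus, and each of the other complexes combines nuclear subunits, made in the cytosol and imported, with a few made inside the mitochondrion, so its nuclear and mitochondrial genes must be expressed together.

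Before treatment the cells were starved of steroid hormone for 2 days by keeping them in 10% serum stripped with charcoal. Each treatment then had 3 arrays, marked as biological replicates by the titles: vehicle (ethanol and DMSO), 1 nM R1881 (methyltrienolone, a synthetic androgen) with DMSO, or 1 nM R1881 with 20 µM gedunin, a plant limonoid known to impair HSP90 function. Treatment lasted 24 h by the descriptions, but the titles of the arrays labelled R1881 say 6 h, and the labels do not settle this. If those titles are right, any comparison with these arrays sets 6 h against 24 h. Treatment and duration could then not be told apart in it. No group received gedunin without R1881, and all 3 groups are 1 cell line starved of steroid. Beyond the words of the titles, nothing says that the cultures were separate, so p-values measure the spread between these samples only.

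Known androgen-responsive genes go against the labels. KLK3, which encodes prostate-specific antigen and is induced by androgen, averaged 11839 ± 513 on the arrays labelled vehicle, 1341 ± 104 on those labelled R1881 and 7216 ± 384 on those with gedunin (mean ± SD of the intensity, n = 3). FKBP5, another androgen-induced gene, averaged 1815 ± 147, 45.1 ± 3.15 and 122 ± 16.04 in the same order, and UGT2B17, which androgen represses, averaged 29.8 ± 3.27, 543 ± 54.8 and 73.1 ± 0.958. All 4 measured androgen-induced genes fell, and all 5 androgen-repressed genes rose, between the arrays labelled vehicle and those labelled R1881. Every direction below therefore rests on the labels as deposited, and the groups are called the arrays labelled vehicle and the arrays labelled R1881. If these labels were exchanged, the comparison of the gedunin arrays with those labelled vehicle would be the one in which both sides received androgen. All 9 measured luminal prostate markers, such as KRT8, KRT18 and EPCAM, averaged over 52.4, the lowest median intensity of any array. Of the markers of other cell types, 0 of 4 basal epithelial, 5 of 8 fibroblast, 2 of 6 leukocyte and 2 of 6 neuroendocrine genes did, with the leukocyte gene PTPRC and the neuroendocrine gene CHGA below it. Luminal markers moved with the groups: 3 rose and 5 fell in the first of the comparisons below, 6 rose and 2 fell in the second, and 2 rose and 7 fell in the third, and their part in the results on the subunit genes was not tested.

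Values are intensities on a linear scale. Differences are on the log2 scale with the standard error from limma after the ± sign. A gene is called higher or lower where its limma p, adjusted by Benjamini-Hochberg over all 11963 genes, is under 0.05. A fold within 1 gene can be read from these values, but the intensity of 1 probe set cannot be set against that of another. Of the 69 members, 65 averaged over 52.4. The 4 that did not were NDUFB2-AS1, ATP5MC2P1 and the muscle forms COX6A2 and COX7A1. Members are given by their brightest probe set. No member had probe sets called in opposite directions, but 9, 4 and 2 members in the 3 comparisons below had some probe sets called and others not. In these bulk samples fewer cells of a type and less RNA per cell cannot be told apart, and the normalization hides any change in total RNA.

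Promoter sequences are shown for some of the members with large changes in complexes I and II, NDUFB4, NDUFV1 and SDHA. COX7A2L, which changed in the opposite directions, is shown too. The choice was made after the values of these genes were seen. The sequences are the 250 bases before the transcript start from RefSeq (GRCh38.p14), 5′ to 3′ on the gene's strand. Capitals mark matches on either strand to GCGCA, any 1 base and then GCGC, the core of the site of NRF1, a transcription factor known to act on many respiratory genes. NDUFB4 lies at chr3:120596086-120596335 on the plus strand, NDUFV1 at chr11:67606686-67606935 on the plus strand, SDHA at chr5:218070-218319 on the plus strand and COX7A2L at chr2:42361218-42361467 on the minus strand, where it is the first of its listed windows.
NDUFB4: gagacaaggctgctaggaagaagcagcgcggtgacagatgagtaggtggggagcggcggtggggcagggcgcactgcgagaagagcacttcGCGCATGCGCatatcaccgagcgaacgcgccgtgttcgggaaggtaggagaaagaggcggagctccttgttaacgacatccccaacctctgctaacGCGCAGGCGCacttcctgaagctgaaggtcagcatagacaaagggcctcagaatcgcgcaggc
NDUFV1: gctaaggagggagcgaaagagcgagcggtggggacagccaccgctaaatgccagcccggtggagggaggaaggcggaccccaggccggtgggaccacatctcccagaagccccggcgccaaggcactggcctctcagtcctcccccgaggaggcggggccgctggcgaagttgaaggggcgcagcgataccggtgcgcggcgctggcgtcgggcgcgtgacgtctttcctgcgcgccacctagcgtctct
SDHA: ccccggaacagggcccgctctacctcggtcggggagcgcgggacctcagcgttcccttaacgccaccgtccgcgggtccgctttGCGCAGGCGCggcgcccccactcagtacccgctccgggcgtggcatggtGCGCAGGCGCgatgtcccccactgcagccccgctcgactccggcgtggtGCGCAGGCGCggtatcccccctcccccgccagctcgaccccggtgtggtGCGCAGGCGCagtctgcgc
COX7A2L: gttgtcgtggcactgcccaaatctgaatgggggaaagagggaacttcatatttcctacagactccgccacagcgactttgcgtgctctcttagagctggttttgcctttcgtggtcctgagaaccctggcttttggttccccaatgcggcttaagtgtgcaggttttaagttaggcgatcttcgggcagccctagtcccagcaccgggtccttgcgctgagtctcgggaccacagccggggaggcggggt

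SDHA held 4 such matches, NDUFB4 held 2, and the stretches of NDUFV1 and COX7A2L held none. NDUFS1 and NDUFC1 of complex I had larger changes than SDHA but are not shown, and their promoter windows held 0 such matches. Promoter windows of 300 bases, 250 before to 50 after the start, were listed for 58 of the 67 protein-coding members, and the first listed window of each was searched on both strands. The NRF1 core was found in 13 of the 58 (22.4%), against 9.48% of the 9562 measured genes with a window. CCGGAAG, a core bound by ETS factors, was in 17 (29.3%, against 15.2%), and AAGATGGCG, a core of the site of YY1, in 7 (12.1%, against 3.32%). The motifs were searched separately, so a promoter may count under several, and the 3 cores do not contain one another. Of 18 members with a window that were called lower with gedunin relative to the arrays labelled R1881, 6 held the NRF1 core, 3 the ETS core and 1 the YY1 core. Of 39 not called, 7, 14 and 6 did, so the direction of the split differed between motifs. A match is a run of letters and not a binding site.

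The first comparison set the arrays labelled R1881 against those labelled vehicle. Here 20 members rose and 4 fell, 34.8% of the 69 against 30.3% of all genes tested. The direction was uneven: 29.0% of members rose against 16.7% of all genes, and 5.80% fell against 13.6%. Among the 7041 genes with a mean over 52.4, 23.6% rose and 19.8% fell, against 30.8% and 4.62% of the 65 members over 52.4. The protein-coding members were brighter than most genes, with a median intensity of 1396 against 71.3 over all genes. Genes over 52.4 are thus not matched to the members in brightness, here or below. The changes were small, with a median log2 difference of 0.09 over the members and 0.00 over all genes, and 54 of the 69 members were above 0. Quantile normalizing the arrays again gave 36 rises and 3 falls, and eBayes with trend and robust 31 rises and 4 falls. If the labels were exchanged, rises and falls would change places. Complex V had 7 of 16 protein-coding members higher, complex I 7 of 28, complex III 3 of 7, complex IV 2 of 13 and complex II 1 of 3.

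The second comparison set the gedunin arrays against those labelled R1881. In it 1 member rose and 22 fell, 33.3% of the 69 against 27.4% of all genes. Falls made up 31.9% of the members against 13.4% of all genes and 19.4% of the genes over 52.4. For rises, the background was 14.0% of all genes and 21.3% of the genes over 52.4. The median log2 difference was -0.10 over the members and -0.01 over all genes, and 52 of 69 members were below 0. Quantile normalizing the arrays again gave 39 falls, with a median of -0.19 over the protein-coding members. By complex, 9 of 28 protein-coding members fell in complex I, 9 of 16 in complex V, 3 of 7 in complex III and 1 of 3 in complex II. In complex IV limma called 0 of 13 lower, with 3 lower at an unadjusted p under 0.05. This comparison and the first share the arrays labelled R1881, so a gene that is high on those 3 arrays moves up in one and down in the other by construction. With the labels exchanged, the second comparison would set R1881 with gedunin against vehicle. Its differences could then not be assigned to gedunin alone.

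The third comparison set the gedunin arrays against those labelled vehicle. It called 3 members higher and 10 lower, 18.8% of the 69 against 26.9% of all genes. The share of falls, 14.5%, was close to the background of 11.9% of all genes and 17.8% of the genes over 52.4. The background for rises was 15.0% of all genes and 22.0% of the genes over 52.4. The median log2 difference was -0.02 over the members and -0.01 over all genes. The count of rises was unstable: it was 1 (with 9 falls) with the arrays shifted to 1 common median, 6 with the mean of all probe sets or without dim genes, 7 with a pseudocount of 16, 9 with array weights and 11 (with 14 falls) with trend and robust. Without vehicle replicate 1 or without gedunin replicate 3 the count of rises was 0, and without gedunin replicate 2 the count of falls was 5. The dot plot of differences by complex sets the 3 comparisons side by side.

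**Figure D1:**
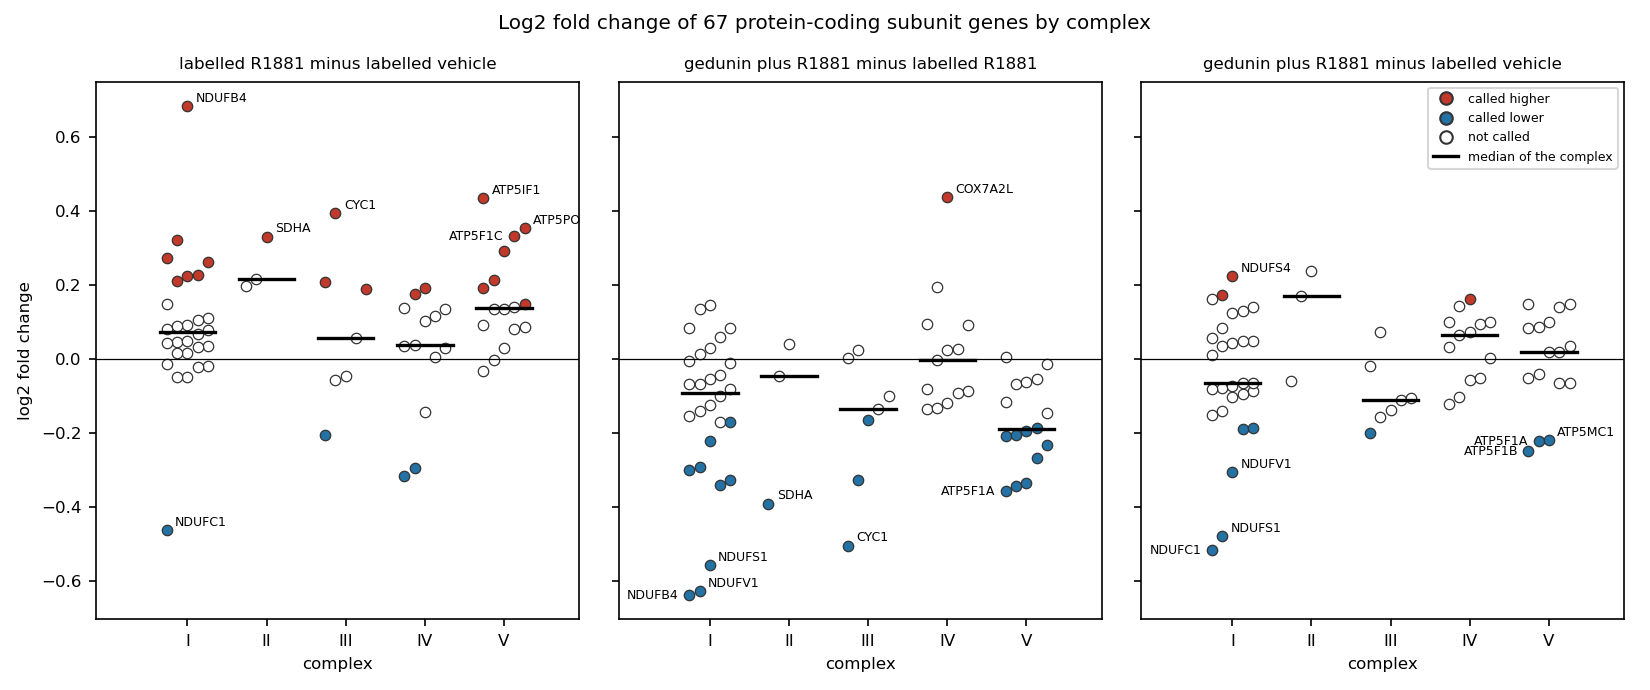
Log2 difference of the 67 protein-coding members in the 3 comparisons, by complex on the x axis, with filled points for members past the adjusted p threshold and bars for the median of each complex. Complex V has its median at 0.14 in the first comparison and at -0.19 in the second, and complex I at 0.07 and -0.09.

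Complex I starts the chain. Its core subunits carry the flavin and the iron-sulfur clusters that take electrons from NADH, and 5 of the nuclear core subunits were measured. NDUFV1 binds NADH and the flavin. Its intensity was 795, 819 and 759 on the arrays labelled vehicle, 1017, 999.6 and 948 on those labelled R1881 and 617, 628 and 676 on those with gedunin. The 3 groups did not overlap: the arrays labelled R1881 were highest and the gedunin arrays lowest. NDUFV1 rose by 0.32 ± 0.06 (adjusted p = 0.000902) in the first comparison, or 1.25-fold. It was lower on the gedunin arrays than on those labelled R1881, at -0.63 ± 0.06 (adjusted p = 3e-06), and lower than on those labelled vehicle, at -0.30 ± 0.06 (adjusted p = 0.00152).

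NDUFS1 is the large iron-sulfur core subunit of the peripheral arm. Its intensity was 371, 393 and 387 on the arrays labelled vehicle, 416, 403 and 397 on those labelled R1881 and 292, 261 and 275 on those with gedunin. Both groups without gedunin were high and all 3 gedunin arrays were low, with no overlap. The log2 difference was 0.08 ± 0.06 (adjusted p = 0.368) in the first comparison, -0.56 ± 0.06 (adjusted p = 7.86e-06) in the second and -0.48 ± 0.06 (adjusted p = 3.33e-05) in the third. NDUFS1 and NDUFV1 were thus the 2 core subunits that fell with gedunin against both other groups. NDUFS3, a core subunit of the part that passes electrons to ubiquinone, rose by 0.23 in the first comparison and was called lower at -0.30 in the second. NDUFV2 and NDUFS7, both iron-sulfur subunits, were not called in any comparison and stayed between -0.08 and 0.08.

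The accessory subunits surround the core and are needed to build and hold the complex. Of 23 measured, 5 rose and 1 fell in the first comparison, and 6 fell in the second. In the third, 2 rose and 3 fell. Rises in the first, 21.7%, lay between the 16.7% of all genes and the 23.6% of genes over the lowest array median. Falls in the first were 4.35%, against 13.6% of all genes. Falls in the second were 26.1%, against 13.4% of all genes and 19.4% of genes over that median. In the third, rises were 8.70% against 15.0% of all genes, and falls, 13.0%, were near the 11.9% of all genes. NDUFB4, in the membrane arm, had the largest change of any member in the first comparison. Its intensity was 5168, 5403 and 5002 on the arrays labelled vehicle, 8445, 8377 and 8187 on those labelled R1881 and 5307, 5243 and 5543 on those with gedunin. The arrays labelled R1881 stood above all the others, while the vehicle and gedunin arrays overlapped. NDUFB4 rose by 0.68 ± 0.05 (adjusted p = 4.64e-07) in the first comparison, which is 1.61-fold, and the second gave -0.64 ± 0.05 (adjusted p = 1.19e-06). In the third it was 0.05 ± 0.05 (adjusted p = 0.609).

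NDUFC1, a small subunit of the membrane arm, had another order. Its intensity was 2167, 2129.8 and 2194 on the arrays labelled vehicle, 1631, 1479 and 1604 on those labelled R1881 and 1437, 1507 and 1599.9 on those with gedunin. Here the arrays labelled vehicle stood alone above the other 6, which overlapped. The log2 difference was -0.46 ± 0.06 (adjusted p = 5.28e-05) in the first comparison, -0.05 ± 0.06 (adjusted p = 0.611) in the second and -0.52 ± 0.06 (adjusted p = 2.4e-05) in the third. The other accessory subunits that rose in the first comparison were NDUFB6 (0.27), NDUFB5 (0.26), NDUFA10 (0.23) and NDUFB8 (0.21). With the mean of its 3 probe sets NDUFB8 was 0.06 and not called. In the second comparison NDUFB5 (-0.34), NDUFA10 (-0.33), NDUFA3 (-0.29), NDUFA6 (-0.22) and NDUFB1 (-0.17) were called lower. The call for NDUFB1 was lost in 8 of 9 fits that left out 1 array. In the third, NDUFS4 (0.22) and NDUFB6 (0.17) were called higher, and NDUFA13 (-0.19) and NDUFA6 (-0.19) lower. These 4 calls were lost in 3, 5, 4 and 5 of 9 such fits, and that of NDUFA6 also with the mean of its probe sets (-0.09). NDUFAB1, the mitochondrial acyl carrier protein, was not called, with differences of 0.11, 0.03 and 0.14.

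**Figure D2:**
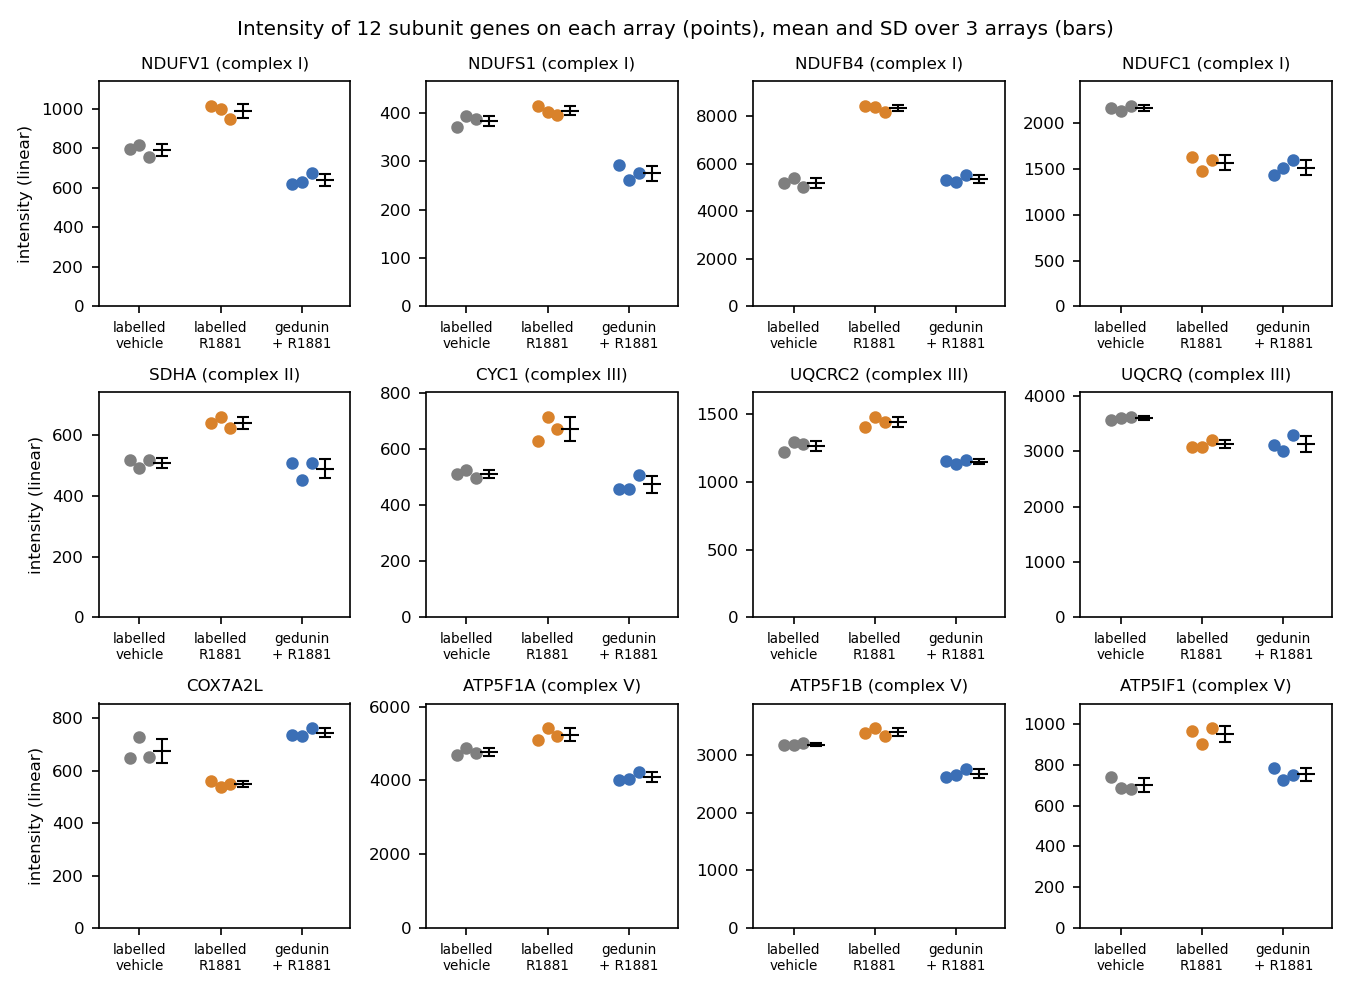
Intensity of 12 members on each of the 9 arrays, 1 panel a gene with its own axis starting at 0, with a point for every array and bars for the mean and SD of each group of 3. NDUFB4 and NDUFV1 are highest on the arrays labelled R1881, NDUFC1 on those labelled vehicle, and COX7A2L is lowest on the arrays labelled R1881.

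Complex II, succinate dehydrogenase, is also an enzyme of the citric acid cycle. SDHA carries its flavin and oxidises succinate. Its intensity was 520.5, 492 and 519.6 on the arrays labelled vehicle, 641, 662 and 623 on those labelled R1881 and 508, 455 and 509 on those with gedunin. The arrays labelled R1881 were all above the other 6, which overlapped. SDHA rose by 0.33 ± 0.06 (adjusted p = 0.00093) in the first comparison and was called lower in the second, at -0.39 ± 0.06 (adjusted p = 0.000268), with -0.06 ± 0.06 (adjusted p = 0.565) in the third. These values rest on 1 probe set, which can hybridize to related sequences. The membrane anchors that hold the haem, SDHC and SDHD, were not called. Their differences were 0.20 and 0.22 in the first comparison, 0.04 and -0.05 in the second and 0.24 and 0.17 in the third. In the first comparison the SDHC arrays overlapped between groups, and those of SDHD did not.

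Complex III passes electrons from ubiquinone to cytochrome c. CYC1 is cytochrome c1, which hands electrons to cytochrome c. Its intensity was 512, 526 and 497 on the arrays labelled vehicle, 631, 717 and 672 on those labelled R1881 and 458, 458 and 509 on those with gedunin. The arrays labelled R1881 were above all others, and the vehicle and gedunin arrays overlapped. CYC1 rose by 0.39 ± 0.07 (adjusted p = 0.000401) in the first comparison and gave -0.50 ± 0.07 (adjusted p = 5.44e-05) in the second, with -0.11 ± 0.07 (adjusted p = 0.271) in the third.

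UQCRC2, a core protein on the matrix side, had an intensity of 1223, 1294 and 1278 on the arrays labelled vehicle, 1408, 1483 and 1440.0 on those labelled R1881 and 1155, 1132 and 1164 on those with gedunin. The 3 groups did not overlap, with the arrays labelled R1881 highest and the gedunin arrays lowest. It was called higher in the first comparison, at 0.19 ± 0.05 (adjusted p = 0.0139), and lower in the second, at -0.33 ± 0.05 (adjusted p = 0.00032). Its partner UQCRC1 was not called, with -0.06, -0.10 and -0.16. Of the small subunits, UQCRB rose in the first comparison (0.21), UQCR11 was called lower in the second (-0.16), a call lost in 8 of 9 fits that left out 1 array, and UQCR10 was not called in any comparison. UQCRQ, a small subunit near the ubiquinone pocket, had an intensity of 3563, 3612 and 3629 on the arrays labelled vehicle, 3085, 3088 and 3209 on those labelled R1881 and 3112, 3007 and 3291 on those with gedunin. Its arrays labelled vehicle stood above the other 6, as for NDUFC1. UQCRQ was lower in the first comparison, at -0.20 ± 0.05 (adjusted p = 0.0115), a call that was lost when the arrays were quantile normalized again, and was -0.20 ± 0.05 (adjusted p = 0.0141) in the third.

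Complex IV, cytochrome c oxidase, had 4 of its 13 measured genes called in the first comparison, 1 in the second and 1 in the third. These were 30.8%, 7.69% and 7.69%, against 30.3%, 27.4% and 26.9% of all genes, so the first was near that share. The 13 include COX7A2L, described below, which only resembles a subunit. It was called in the first comparison and was the 1 gene called in the second. Without COX7A2L and the muscle forms COX6A2 and COX7A1, 10 nuclear subunits remained. Of these, 2 rose in the first comparison, COX5B (0.19 ± 0.05, adjusted p = 0.00921) and COX6C (0.18 ± 0.06, adjusted p = 0.0297). The call for COX6C was lost in 4 of 9 fits that left out 1 array. In the second limma called 0 of these 10 in either direction, against 3 lower and 0 higher at an unadjusted p under 0.05. In the third 1 rose, COX7A2 (0.16 ± 0.05, adjusted p = 0.0404), a call lost in 6 of 9 fits that left out 1 array. COX5B was the member with 3 equal deposited values on the gedunin arrays. COX4I1, the isoform of subunit 4 found in most tissues, was not called, at 0.10 in the first comparison and 0.10 in the third by its brightest probe set, and another of its probe sets was called higher in the first (0.17, adjusted p = 0.0443). COX5A (0.12 in the first comparison), COX6A1 (0.04) and COX8A (0.03) were not called in any comparison. The muscle forms COX6A2 and COX7A1 averaged under 52.4. COX6A2 was called lower in the first comparison, at -0.32 ± 0.09 (adjusted p = 0.0137), on values of 23.7, 27.3 and 25.6 on the arrays labelled vehicle, 19.3, 23.3 and 19.2 on those labelled R1881 and 25.6, 22.3 and 22.5 on those with gedunin, where any fold is approximate.

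COX7A2L resembles a complex IV subunit but takes part in joining complexes III and IV into supercomplexes. Its intensity was 647, 727 and 652 on the arrays labelled vehicle, 561, 539.6 and 549.8 on those labelled R1881 and 737, 734 and 765 on those with gedunin. The arrays labelled R1881 were the lowest 3, the reverse of NDUFB4 and SDHA, and the vehicle and gedunin arrays did not overlap. COX7A2L fell in the first comparison, at -0.29 ± 0.06 (adjusted p = 0.00177), and it was the 1 member that rose in the second, at 0.44 ± 0.06 (adjusted p = 7.85e-05). In the third it was 0.14 ± 0.06 (adjusted p = 0.1). COXFA4, the complex IV subunit formerly named NDUFA4, lies outside the rule under its current symbol and is given for completeness. It averaged 3356 ± 74.2, 3795 ± 115 and 3376 ± 46.5 on the arrays labelled vehicle, labelled R1881 and with gedunin, and was called at 0.18 in the first comparison and -0.17 in the second.

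ATP synthase had 7 of 16 protein-coding genes higher in the first comparison and 9 of 16 lower in the second. The shares over all genes were 16.7% higher and 13.4% lower. Both counts include the inhibitor ATP5IF1, described below. In the F1 head, the alpha subunit ATP5F1A and the catalytic beta subunit ATP5F1B had the same order of groups. The intensity of ATP5F1A was 4681, 4887 and 4752 on the arrays labelled vehicle, 5099.6, 5431 and 5193 on those labelled R1881 and 4012, 4038 and 4242 on those with gedunin. That of ATP5F1B was 3169, 3164 and 3203 on the arrays labelled vehicle, 3374, 3471 and 3327 on those labelled R1881 and 2611, 2654 and 2761 on those with gedunin. For both genes the gedunin arrays were the lowest 3 and overlapped with neither other group. ATP5F1A was -0.36 ± 0.05 (adjusted p = 0.000204) in the second comparison and -0.22 ± 0.05 (adjusted p = 0.00739) in the third, and ATP5F1B was -0.34 ± 0.05 (adjusted p = 0.000193) and -0.25 ± 0.05 (adjusted p = 0.00242). Neither was called in the first, at 0.13 and 0.09. These 4 calls held in every alternative setting tried.

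The gamma subunit ATP5F1C, the rotor inside the head, rose by 0.33 ± 0.06 (adjusted p = 0.00111) in the first comparison. In the second its brightest probe set was called at -0.19, while its others were not called (-0.14, -0.13 and -0.08). The call was lost with the mean of all its probe sets and in 5 of 9 fits that left out 1 array. ATP5F1D, the delta subunit, was 0.21 and -0.27 in the same comparisons, called in both, the first of these calls lost in 4 of 9 such fits. ATP5F1E, the epsilon subunit, was called in none. ATP5MC1, ATP5MC2 and ATP5MC3 encode the same mature c subunit of the membrane ring. ATP5MC2 (0.19) and ATP5MC3 (0.15) rose in the first comparison, while ATP5MC1 was -0.03 and not called. The call for ATP5MC3 was lost in 6 of 9 fits that left out 1 array and with the arrays shifted to 1 median. In the second, ATP5MC2 (-0.23) and ATP5MC1 (-0.19) were called lower and ATP5MC3 (-0.07) was not; the call for ATP5MC1 was lost in 5 of 9 such fits. With the mean of all probe sets of a gene in place of the brightest, ATP5MC2 lost its calls in both comparisons. ATP5MC1 was also lower in the third (-0.22).

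In the peripheral stalk, which keeps the head from turning with the rotor, ATP5PO (0.35 ± 0.06, adjusted p = 0.000667) and ATP5PD (0.29 ± 0.06, adjusted p = 0.00133) rose in the first comparison. ATP5PO (-0.20) and ATP5PB (-0.21) were called lower in the second, calls lost in 3 and 1 of 9 such fits, and ATP5PF was not called. Of the small membrane subunits ATP5ME, ATP5MG and ATP5MJ, limma called 0 in any comparison by their brightest probe sets. At an unadjusted p under 0.05, 1 was higher in the first, 1 lower in the second and 0 either way in the third. A dimmer probe set of ATP5MG was called higher in the first, at 0.41 (adjusted p = 0.000567), and in the third, at 0.31 (adjusted p = 0.00534), while its 3 brighter ones, which can hybridize to related sequences, were not.

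ATP5IF1 encodes the inhibitor that blocks ATP synthase from running backwards and hydrolysing ATP. Its intensity was 742, 683 and 682 on the arrays labelled vehicle, 965, 903 and 981 on those labelled R1881 and 784, 724 and 750.1 on those with gedunin. The arrays labelled R1881 lay above the other 6, and the vehicle and gedunin arrays overlapped. ATP5IF1 rose by 0.44 ± 0.06 (adjusted p = 8.99e-05) in the first comparison, the largest rise in complex V, and was -0.33 ± 0.06 (adjusted p = 0.000841) in the second and 0.10 ± 0.06 (adjusted p = 0.279) in the third. Both calls held in every alternative setting tried. The pseudogene ATP5MC2P1, under 52.4 on average, was called lower in the third comparison (-0.23).

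**Figure D3:**
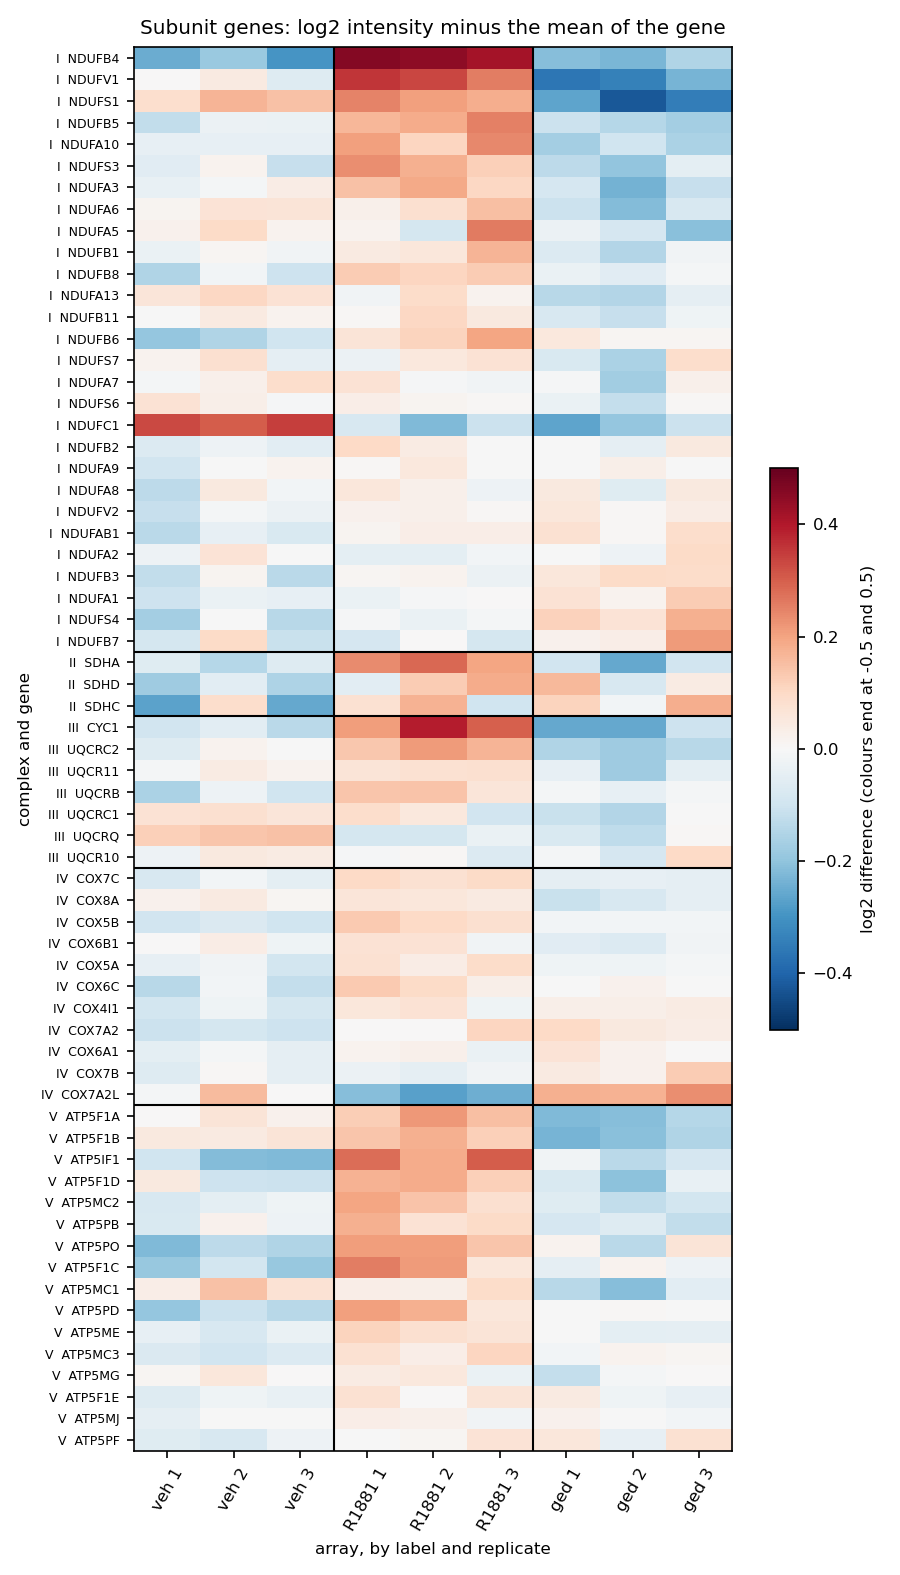
Log2 intensity of the 65 members over 52.4 on each array minus the mean of the gene over the 9 arrays, with complexes I to V from top to bottom and colours from blue (lower) to red (higher). The columns of the arrays labelled R1881 are red for NDUFB4, CYC1 and ATP5IF1 and blue for COX7A2L, and most members of complex IV stay pale in all 9 columns.

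The 4 lists of genes that serve the same pathway were counted beside the subunits. Their genes are given by the brightest probe set. Other probe sets and alternative settings were examined for the members only, so the stability of calls on these lists was not tested. Assembly factors, which build the complexes but are not part of them, were measured for 35 genes: 11 rose and 4 fell in the first comparison, 3 rose and 16 fell in the second, and 5 rose and 10 fell in the third. As shares these were 31.4% and 11.4%, 8.57% and 45.7%, and 14.3% and 28.6%. The shares of all genes were 16.7% and 13.6%, 14.0% and 13.4%, and 15.0% and 11.9%. Of the 35 assembly factors, 31 averaged over the lowest array median. Of genes over that median, 23.6% rose and 19.8% fell in the first comparison, and 21.3% and 19.4% in the second. In the third these shares were 22.0% and 17.8%. The median log2 differences of the assembly factors were 0.06, -0.17 and -0.05. NDUFAF4, which helps assemble complex I, had an intensity of 244, 267 and 253 on the arrays labelled vehicle, 860.4, 926 and 885 on those labelled R1881 and 238, 238 and 256 on those with gedunin. The arrays labelled R1881 were above the other 6, which overlapped. Its differences were 1.80 ± 0.06 (adjusted p = 9.71e-11) in the first comparison and -1.87 ± 0.06 (adjusted p = 1.4e-10) in the second, larger than those of any subunit gene. NDUFAF1, another complex I assembly factor, rose in the second (0.73). CMC2, a complex IV assembly factor, fell in the first and the third (-1.13 and -1.04), as did COA4 in the third (-0.62).

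Regulators of mitochondrial biogenesis were measured for 22 genes. Some of them turn on nuclear or mitochondrial genes of the chain, and others, such as POLG2 and MTERF4, act in other ways. In the first comparison 6 rose and 3 fell, in the second 1 and 4, and in the third 3 and 4. As shares these were 27.3% and 13.6%, 4.55% and 18.2%, and 13.6% and 18.2%. Falls in the first and rises in the third were near the 13.6% and 15.0% of all genes. Of the 22 regulators, 17 averaged over the lowest array median. Falls in the second and the third were near the 19.4% and 17.8% of genes over that median. Rises in the first stood against 23.6% of those genes. TFAM, which packages and transcribes mitochondrial DNA, was -0.47 ± 0.09 (adjusted p = 0.00207) in the second comparison. TFB2M, a factor of mitochondrial transcription, was -0.45 in the second and -0.77 in the third. NRF1, whose site was searched in the promoters above, was called in the third at 0.38. In the first, POLG2, a subunit of the mitochondrial DNA polymerase, rose (0.36) and MTERF4, which acts in mitochondrial ribosome assembly, fell (-0.64).

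Electron carriers, ubiquinone synthesis and nucleotide exchange were measured for 28 genes, with 10 rises and 3 falls in the first comparison, 1 and 12 in the second, and 5 and 7 in the third. These were 35.7% and 10.7%, 3.57% and 42.9%, and 17.9% and 25.0%. Falls in the first and rises in the third were near the shares over all genes, 13.6% and 15.0%. Of the 28 genes, 24 averaged over the lowest array median. Genes over that median had 23.6% rises and 19.8% falls, then 21.3% and 19.4%, then 22.0% and 17.8%. SQOR, which feeds electrons from sulfide to ubiquinone, rose in the first and the third (1.01 and 0.76). PPA2, the mitochondrial pyrophosphatase, was 0.99 in the first and -0.73 in the second. ETFB, part of the electron transfer flavoprotein of fatty acid oxidation, fell in the second (-0.88), and COQ8A, needed for ubiquinone synthesis, in the third (-0.66). Pyruvate entry and the citric acid cycle were measured for 25 genes, with 9 rises and 6 falls, then 2 and 11, then 3 and 10. As shares these were 36% and 24%, 8% and 44%, and 12% and 40%. Of the 25 genes, 24 averaged over the lowest array median. Falls in the first lay above the 13.6% of all genes and near the 19.8% of genes over that median. Rises in the third were near the 15.0% of all genes. MPC2, a subunit of the mitochondrial pyruvate carrier, was -1.39 in the first and -0.99 in the third. The malic enzyme ME2 rose in the first (0.96). PDHB and DLD, subunits of the pyruvate dehydrogenase complex, fell in the second (-0.77 and -0.76), and OGDH, of the 2-oxoglutarate dehydrogenase complex, in the third (-0.74).

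**Figure D4:**
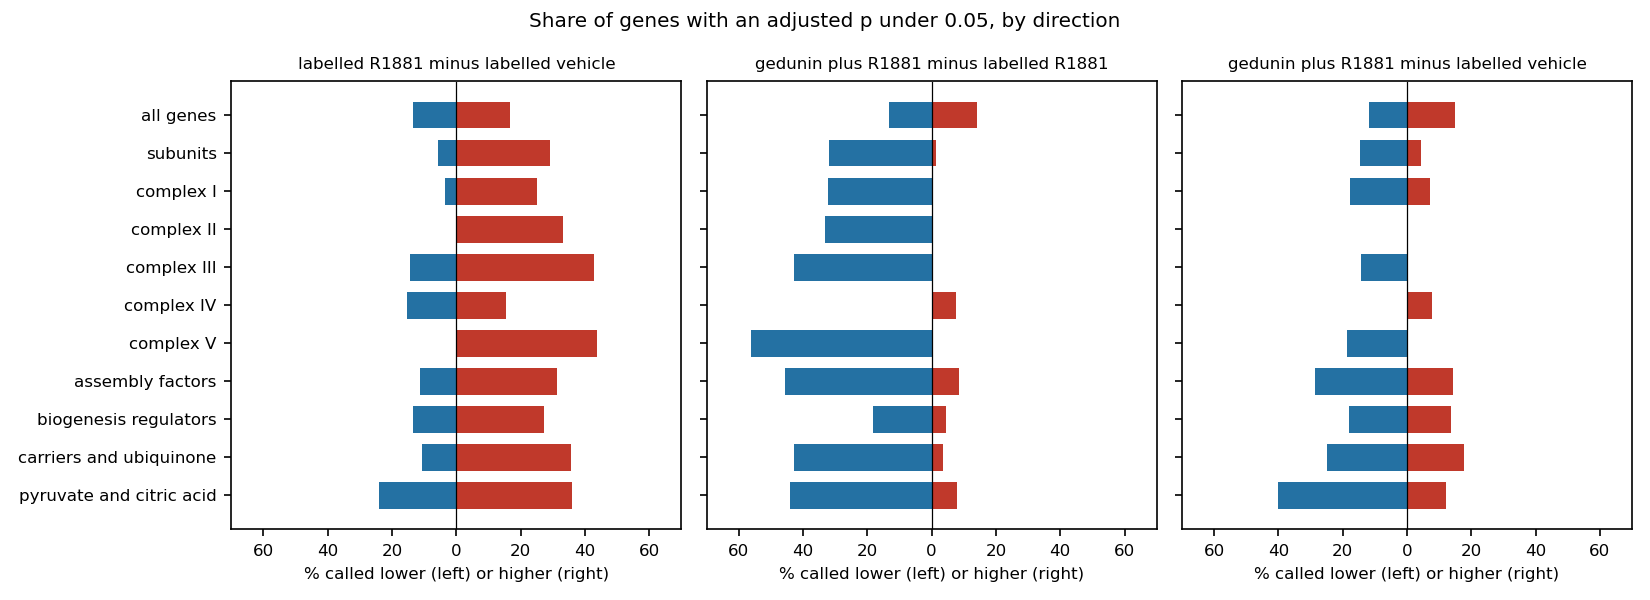
Percent of genes called lower (left of 0) and higher (right of 0) in the 3 comparisons, for all 11963 genes, the 69 members (subunits), each complex over its protein-coding members and the 4 other lists. In the second comparison 31.9% of the members are lower against 13.4% of all genes, and no bar of complex IV extends to the left.

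**Figure D5:**
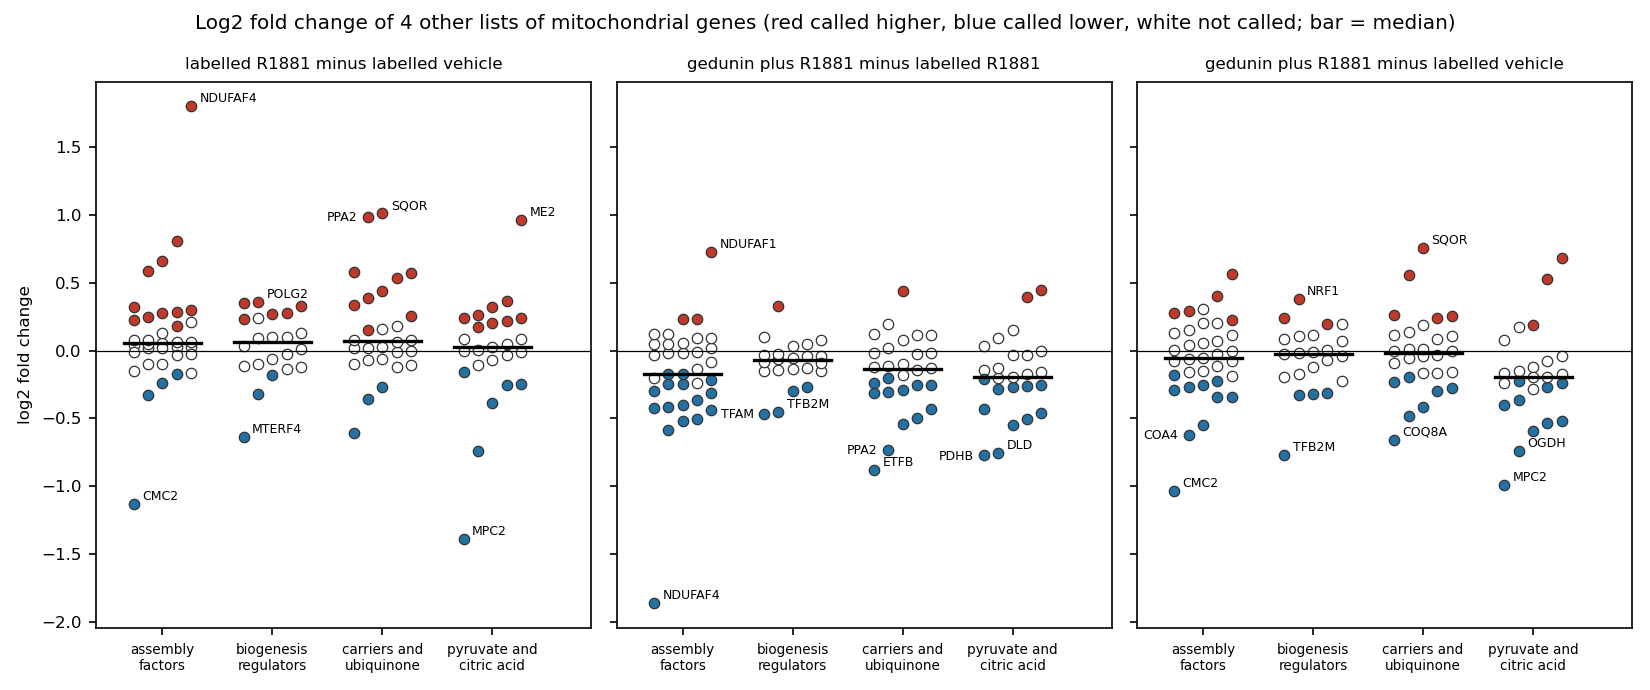
Log2 difference of the measured genes of the 4 other lists in the 3 comparisons, with filled points for genes past the adjusted p threshold and bars for the median of each list. NDUFAF4 stands at 1.80 and -1.87 in the first and second comparisons, and MPC2 at -1.39 in the first.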

How the data were processed

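RNA was hybridized to 9 Affymetrix arrays after Trizol extraction and biotin labelling, per the labels' protocols. The deposited intensity of each probe set and array is linear and comes, per the submitters' processing notes, from RMA; its version is not given in the sources used here. RMA quantile-normalizes the arrays, so their medians differ little (52.4 to 54.5). Arrays correlated at 0.996 to 0.998 within groups and 0.972 to 0.983 across groups. Precision is limited by 3 arrays per group.

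All tests used log2 values. In the annotation 19064 of 22277 probe sets had 1 gene symbol; 12 of these had no match in RefSeq (GRCh38.p14) and kept the platform's symbol. The probe set with the highest mean stood for each of 11963 genes. Of the members, 21 had several probe sets, and 7 rest on a probe set that can hybridize to related sequences (ATP5F1C, ATP5ME, ATP5MG, COX4I1, COX7C, UQCRB and SDHA). Tests are from limma 3.58.1, run in R 4.3.3, with 1 coefficient per group, all 9 arrays in the fit and eBayes (two-sided, Benjamini-Hochberg over all genes, threshold 0.05). The procedure was also run on simulated arrays with independent noise, as a check of the code. How well it recovers changes as small as those of the members is not reported here. Errors of log2 differences are limma's standard errors.

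The members and lists were chosen with earlier results of these data known, so no p is given over a list. Genes were named as the 4 largest called changes per complex and comparison, fixed members, and the 2 largest called changes per other list; further called members, and members that were not called, were named after their values were seen. Alternatives covered probe set choice, scaling, dim genes, the pseudocount, limma's options, the replicate block and leaving out each array. They were read for the members only and not for the other lists.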

Additional observations from a re-analysis of the deposited data

How the results depend on the processing

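With 3 arrays per group, calls near the threshold moved with the setting, and no call on a member changed sign in any of the 19 alternatives. Calls kept in every alternative numbered 12 of 20 rises and 2 of 4 falls in the first comparison, 14 of 22 falls and the 1 rise in the second, and 5 of 10 falls and 0 of 3 rises in the third, where limma gave 12 rises at an unadjusted p under 0.05. The median over the protein-coding members ranged from 0.08 to 0.16, from -0.19 to -0.08 and from -0.03 to 0.02 in the 3 comparisons. Quantile normalization of the deposited values gave 36 rises in the first comparison and 39 falls in the second, against 20 and 22, and eBayes with trend and robust gave 31 rises in the first; the cause was not tested. Rises in the third comparison, 3 in the fit reported, were 1 with arrays shifted to 1 median, 6 with the mean of all probe sets, 6 without dim genes (fewer genes tested), 7 with a pseudocount of 16, 9 with array weights and 11 with trend and robust. Leaving out each array in turn gave 15 to 21 rises and 3 to 4 falls in the first comparison, 1 to 2 rises and 16 to 22 falls in the second, and 0 to 5 rises and 5 to 10 falls in the third. The third comparison had 0 rises without vehicle replicate 1 or gedunin replicate 3, 1 without vehicle replicate 3 or gedunin replicate 1 and 5 without R1881 replicate 3, and 5 falls without gedunin replicate 2. The second had 2 rises without R1881 replicate 2. Calls lost in 1 to 4 of 9 such fits, beside those given with their genes, were those of NDUFS3, UQCRB, UQCRC2, COX6A2 and ATP5MC2 in the first comparison, NDUFA6 in the second and UQCRQ, ATP5MC1 and ATP5MC2P1 in the third. With the replicate number as a block there were 19 rises and 4 falls, 1 rise and 20 falls, and 1 rise and 10 falls. Deviations of same-numbered arrays correlated at -0.11 to 0.13 and those of other arrays at -0.15 to 0.17. These ranges overlap, but with 3 arrays per group they cannot show whether same-numbered samples were handled together. The labels do not say, and the fit reported treats the samples as unpaired. Small differences, and any gene under 52.4, are at the limit of what these arrays resolve.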
